A study of Mus musculus with 20 samples.

Results

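Neocortex of mice whose endogenous TDP-43 carries glutamine in place of lysine 145 on both alleles (TDP-43 KQ/KQ, KQ in what follows) was compared with neocortex of TDP-43 wt (wt) mice. The comparison takes the 11 neocortex libraries of the 20 in the series, by their region label, of which 6 are KQ (3 females, 3 males) and 5 are wt (3 females, 2 males), and it asks which transcripts differ when TDP-43 carries this mimic of an acetylated lysine. All mice were 18 months old. The substitution was made with CRISPR in the native Tardbp gene, so the altered protein is under its own promoter in every cell that uses the gene, and the mice descend from a line kept as heterozygotes. The other 9 libraries are from hippocampus and are used here only for values set beside those of the neocortex. Each library is total RNA from a piece of bulk tissue after removal of ribosomal RNA, so that fewer cells of a type and less RNA per cell cannot be told apart.

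TDP-43 is a nuclear protein that binds UG-rich RNA through paired RNA recognition motifs and acts in splicing, transcript stability and transport. It also binds its own messenger RNA and lowers it, which keeps its level within bounds. Loss of TDP-43 from the nucleus and its aggregation in the cytoplasm mark amyotrophic lateral sclerosis and most frontotemporal dementia with such inclusions, and acetylation within the RNA recognition motifs weakens its grip on RNA.

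The edited codon lies in exon 4 of 6 of the Tardbp transcript matched here, on the reverse strand of chromosome 4 from 148620700 to 148620702 (GRCm38, the assembly mm10). The guide, the reference transcript and the repair template are shown because they define the only designed difference between the groups. The last 19 bases of the guide match 11 protein-coding Tardbp transcripts. Capitals in the guide mark the lysine codon at its 3′ end, and capitals in the other sequences mark the bases at which they differ.
Guide: gtaaaactggtcactcgAAA
Reference transcript: actggtcactcGAaAggGttTggctttgtt
Repair template: actggtcactcTCaGggAttCggctttgtt
Counted from 1 at the 5′ end of the reference window, the template carries G12T, A13C, A15G, G18A and T21C. Codon 145 is AAA in the reference and CAG in the template (K145Q), and the changes in codons 144, 146 and 147 leave the protein as it was (S144S, G146G, F147F).

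The deposited values lie on a scale like log2 on which the mean of the 6 KQ neocortex libraries is 0 for every gene, so they hold differences but no expression level and no sequencing depth, and precision rests on the spread between libraries. Sex and litter had been removed from them, which narrows the spread inside groups. The SDs, gaps between groups and counts of genes without overlap below are all taken after that removal. The library of wt male 1, alone in its litter, equals the mean of the other 4 wt neocortex libraries in each of 24528 genes (largest difference 4.75e-08), whereas each of the other 10 departs from the mean of its group by at least 0.821 in some gene. It therefore adds no measurement, and wt values below are those of the 4 other libraries, given in the order female 1, female 2, female 3 and male 2. KQ female 2 shares its litter only with the hippocampus library labelled KQ female 2. Litter was removed over both regions, so its neocortex values depend on that library as well. It is still counted among the 6 KQ libraries in SDs, gaps and overlap counts. The first principal component held 44.8% of the variance, with KQ female 1 (16.7) and male 3 (14.3) at one end and wt female 2 (-17.2) at the other.

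Of 18329 genes tested, 1560 (8.51%) had groups that did not overlap, 773 with every KQ library above every wt library (4.22%) and 787 with every one below (4.29%). Most of these differences were small. Their median was 0.18 for the higher and 0.15 for the lower genes, 18 of the higher and 7 of the lower exceeded 0.5, and the largest were 0.996 for Tardbp and -0.71 for Sema5b. Fitted by limma with genotype, sex and litter, 7 genes passed a Benjamini-Hochberg adjusted p of 0.05 (0.0382% of those tested), 2 higher (0.0109%) and 5 lower (0.0273%), and 2503 had an unadjusted p under 0.05 (13.7%), 1409 of them higher (7.69%) and 1094 lower (5.97%). On the higher side the ranked genes were larger but looser than on the lower side. Among the 15 ranked genes with the largest differences on each side, the median difference was 0.58 for the higher and 0.48 in size for the lower, while the median SD among wt libraries was 0.22 and 0.093. Gene lists below were chosen with earlier results of these data known. Their counts, set beside shares of all genes, therefore describe the lists and are not a test.

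**Figure D1:**
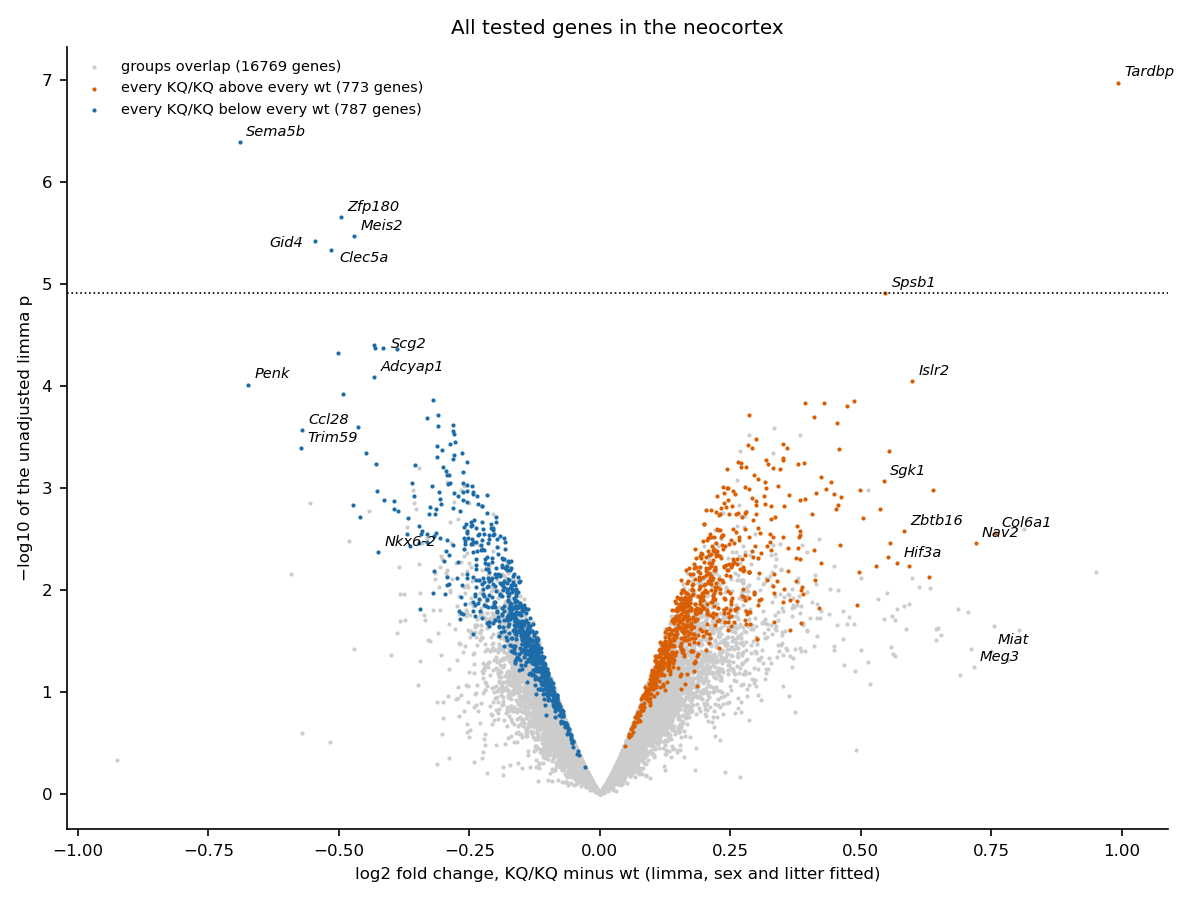
Each point is a gene of the neocortex, with the limma log2 fold change (KQ minus wt) on the x axis and -log10 of the unadjusted p on the y axis; the dotted line passes through the called gene with the highest p (Spsb1). Orange marks the 773 genes and blue the 787 genes whose groups do not overlap; Meg3 and Miat, labelled after their values were seen, are large but overlap between groups.

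Apart from Tardbp and Sema5b, the genes called by limma were a pair of ubiquitin ligase receptors, a zinc finger gene, a homeobox gene and a myeloid receptor. That a gene was not called does not show that it was unchanged. Gid4, which picks substrates for the CTLH ubiquitin ligase by their first residues, lies on chromosome 11 from 60417145 to 60445277. Its values were 0.50, 0.53, 0.49 and 0.64 in wt mice and ran from -0.051 over a median of -0.018 to 0.092 in KQ mice. The groups were 0.396 apart at their nearest libraries, with the spread inside each group far smaller (SD 0.069, n = 4, and 0.053, n = 6), and Gid4 fell by 0.54 ± 0.057 (limma log2 fold change ± SE, adjusted p = 0.0139).

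Spsb1 carries substrates to a cullin ligase through its SOCS box and was the only called rise beside Tardbp. It stood at -0.56, -0.58, -0.55 and -0.56 in wt mice, the tightest group of any called gene (SD 0.0099, n = 4), and between -0.10 and 0.14 in KQ mice (median -0.0090). No library of either group came near the other, and the rise was 0.55 ± 0.065 (limma adjusted p = 0.0322). Spsb1 lies 1.27 Mb from Tardbp on chromosome 4 (149896283 to 149955006). Of 91 tested genes within 5 Mb of Tardbp, itself included, 2 were called (Tardbp and Spsb1), against 0.0382% of all genes. Groups did not overlap in 11 of the 91 (12.1%, against 8.51% of all genes). The window is centred on a called gene and both calls are among the 11, so these counts do not show a local excess.

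Zfp180 encodes a KRAB zinc finger protein, a class of DNA-binding repressors, and had the narrowest KQ group of the called genes (chromosome 7, 24081877 to 24107709). Values were 0.44, 0.52, 0.45 and 0.52 in wt mice and -0.027 to 0.020 in KQ mice (median 0.0018, SD 0.016, n = 6). It fell by 0.50 ± 0.048 (limma adjusted p = 0.0135). In a list of 10 KRAB zinc finger genes that holds Zfp180 itself, 6 were higher and 4 lower (median 0.0115; -0.040 without KQ female 1 and 0.069 without wt male 2), and Zfp180 was the only call.

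Meis2 is a TALE homeobox factor of the developing forebrain that is known from the striatal lineage and from some interneurons (chromosome 2, 115861264 to 116067537). Its wt values were 0.42, 0.49, 0.44 and 0.55, and its KQ values ran from -0.14 over a median of 0.016 to 0.065. Only KQ female 2 stood apart from the others, and it lay farther from the wt group. Its place also depends on the hippocampus library of its litter, so its distance does not measure neocortex alone. Meis2 fell by 0.47 ± 0.048 (limma adjusted p = 0.0139). Its partner Pbx3, which binds DNA jointly with MEIS factors, was -0.32 ± 0.052 and Meis1 -0.18 ± 0.054; neither passed (limma adjusted p = 0.135 and 0.260), although their groups did not overlap.

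Clec5a, a lectin receptor of microglia and other myeloid cells that signals through DAP12 (chromosome 6, 40574898 to 40585805), was 0.50, 0.57, 0.53 and 0.43 in wt mice. In KQ mice it ran from -0.057 to 0.061 around a median of -0.0034, without overlap, and it fell by 0.52 ± 0.055 (limma adjusted p = 0.0140).

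The 7 calls rest on few mice. Leaving out wt male 2 ended all 7, and leaving out wt female 3, KQ female 3 or KQ male 1 ended all but Tardbp. Leaving out any of these last mice gave the same fit (3321 genes at an unadjusted limma p under 0.05), so they are not separate checks. Without KQ female 2, the only neocortex library of its litter, the fit was that of all libraries, so this library adds nothing to the limma estimates. Without KQ male 2, Tardbp and Sema5b stayed called. Without KQ female 1 the calls of Zfp180, Meis2, Clec5a and Spsb1 ended, without wt female 1 those of Clec5a and Spsb1, and without wt female 2 that of Spsb1. Over these fits the log2 fold changes stayed between -0.61 and -0.46 for Gid4, -0.51 and -0.48 for Zfp180, -0.48 and -0.45 for Meis2, -0.59 and -0.47 for Clec5a, and 0.51 and 0.60 for Spsb1, and the highest adjusted p was 0.426, for Spsb1.

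**Figure D2:**
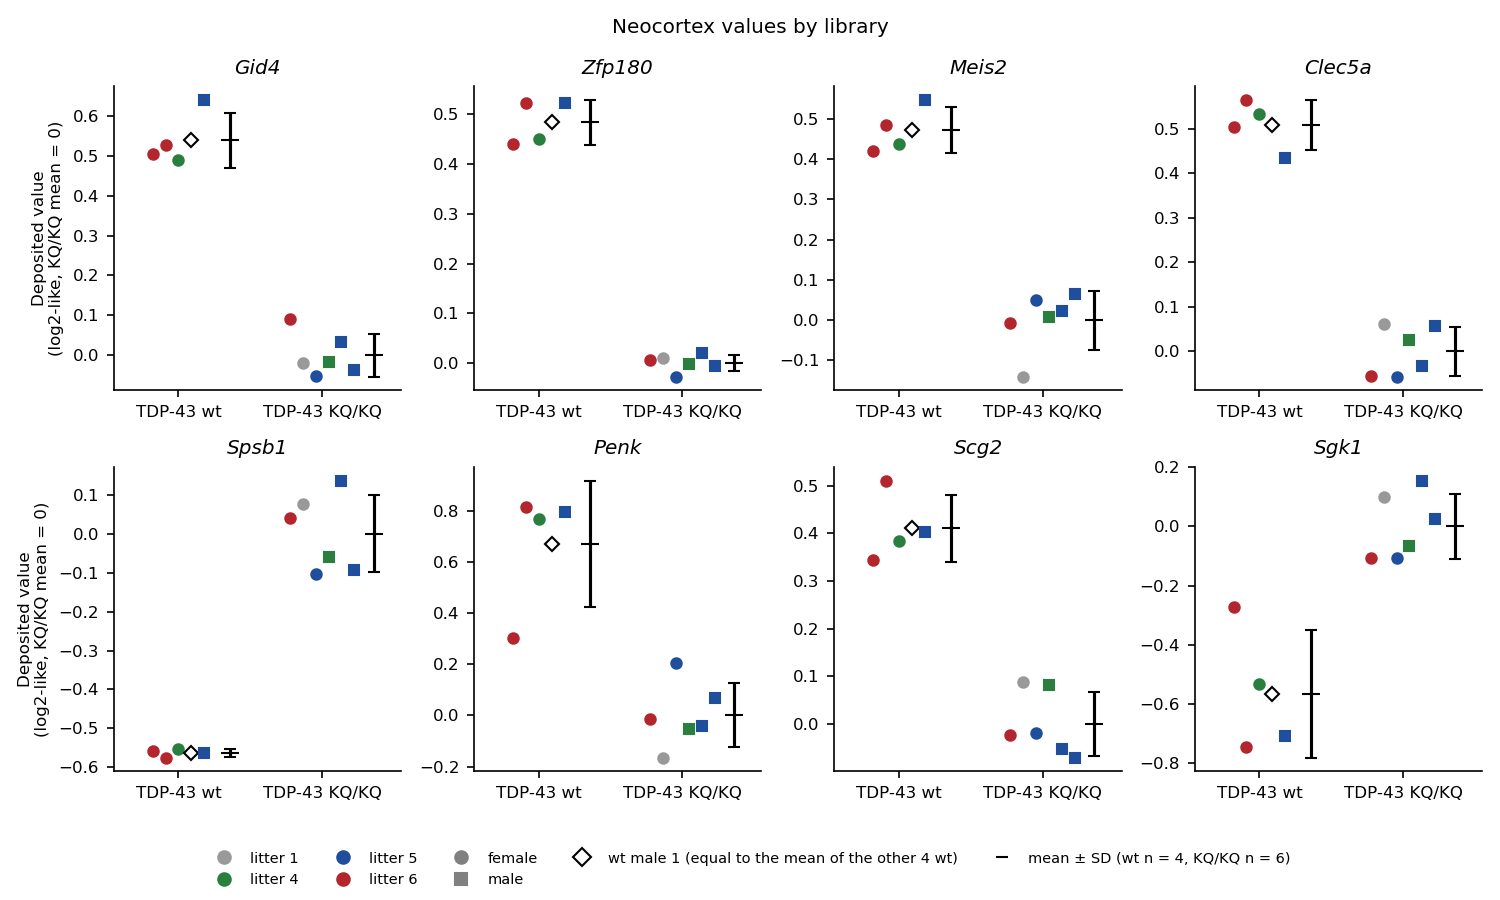
Deposited value (log2-like, mean of KQ = 0) of 8 genes in each neocortex library, with colour for the litter, circles for females and squares for males; open diamonds are wt male 1, which equals the mean of the other 4, and bars are mean ± SD (wt n = 4, KQ n = 6). In all 8 genes the groups do not overlap, and wt female 1 lies nearest to the KQ group for Penk (0.30) and Sgk1 (-0.27).

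Neuropeptide genes and genes of striatal projection neurons were among the lower genes of the ranking. Penk, the precursor of the enkephalins, had the second largest difference among the named lower genes, at -0.67 between group means. It was 0.30, 0.82, 0.77 and 0.80 in wt mice and -0.16, -0.028 and 0.20 (lowest, median, highest) in KQ mice. The library of wt female 1 lay far below the other wt libraries and only 0.097 above the highest KQ library, and Penk did not pass (limma -0.67 ± 0.10, adjusted p = 0.118).

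All 18 genes of a striatal projection neuron list were lower (median log2 fold change -0.34, against -0.0037 and 9443 lower of all 18329 genes). Of the 18, 15 were lower with an unadjusted limma p under 0.05 (5.97% of all genes tested) and none was called. Within litter 6 females 14 of the 18 were lower (median -0.22), and without single libraries at least 16 were. Penk and the homeobox gene Six3 (-0.36 ± 0.077, limma adjusted p = 0.178) were among the 3 members with the lowest p. The mean of the list in wt mice was 0.055 in female 1 and between 0.40 and 0.44 in the other 3 libraries, against -0.14 to 0.12 in KQ mice. Thus wt female 1 fell inside the KQ range and the groups overlapped for the list as a whole. In the hippocampus, where limma called 0 genes (0.00%; 2224, or 12.1%, at an unadjusted p under 0.05), the median of the same list was 0.0014. The markers of striatal neurons were lower beside Penk and Meis2, and their part in those values was not tested.

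Adcyap1, the precursor of the neuropeptide PACAP, had no library near the other group. It was 0.46, 0.58, 0.38 and 0.40 in wt mice and -0.18, 0.042 and 0.059 (lowest, median, highest) in KQ mice (-0.43 ± 0.065, limma adjusted p = 0.116). Scg2, a granin stored in dense-core vesicles, was 0.34, 0.51, 0.38 and 0.40 against -0.071 to 0.087 (median -0.022), and its log2 fold change was -0.42 ± 0.058 (limma adjusted p = 0.0716). Of 23 neuropeptide and granin genes tested, 21 were lower (median -0.21), and none was called. Of the 23, 13 were lower with an unadjusted limma p under 0.05 (5.97% of all genes tested) and 7 were lower without overlap between groups (4.29%). Without wt female 2, KQ female 1 and KQ male 3, the libraries farthest out on the first component, the median was -0.11. Penk, Adcyap1 and Scg2 were called when both regions were taken in 1 model (limma adjusted p = 0.0386, 0.0340 and 0.0159). With mouse as a random effect as well, which takes same-numbered female libraries of both regions as 1 mouse although the labels do not say so, Penk did not pass (limma adjusted p = 0.0547), nor did Meis2 (0.0518). The model without that term called 40 neocortex genes (0.224% of 17863), 19 higher (0.106%) and 21 lower (0.118%), and from 7 (without KQ neocortex female 1) to 123 (without wt hippocampus female 2) when single libraries were left out.

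GABAergic interneuron genes lay on the same side with smaller differences. Of 23 tested, 17 were lower (median -0.12) and 6 of the 23 were lower without overlap (4.29% of all genes tested), without a call. Sst, the peptide of a class of interneurons, was 0.17, 0.24, 0.29 and 0.14 in wt mice and -0.033 to 0.034 in KQ mice (-0.21 ± 0.051, limma adjusted p = 0.212). Gad1, which makes GABA, was -0.22 ± 0.061 (limma adjusted p = 0.244), and Slc32a1, which loads it into vesicles, -0.21 ± 0.062 (limma adjusted p = 0.254). The list means were 0.098 to 0.14 in wt mice and -0.060 to 0.022 in KQ mice, so these did not overlap, and wt female 1, low for striatal genes, had the highest one. Sst and Npy also belong to the neuropeptide list, which shares Penk, Tac1 and Pdyn with the striatal list, so the lists are not independent.

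Genes of excitatory neurons and their synapses had small medians that hung on single libraries. Of 12 excitatory neuron genes 9 were higher, with a median of 0.065 that was 0.0099 without wt male 2 and 0.0018 as a difference of means. Of 38 genes of glutamate receptors and their scaffold 28 were higher, with a median of 0.061 that was 0.012 without KQ female 1. Of the 38, 3 did not overlap, against 8.51% of all genes, and none was called. Neurod2, a transcription factor of cortical excitatory neurons, was -0.31, -0.49, -0.31 and -0.33 in wt mice and -0.23 to 0.19 in KQ mice (0.39 ± 0.087, limma adjusted p = 0.182). Upper layer genes (8 of 12 higher, median 0.062, and 0.096 without wt male 2) and deep layer genes (10 of 14 lower, median -0.059) had medians of that size without a call.

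Among genes of glia and precursors on the lower side, Nkx6-2 and Cdc42ep1 reached the ranking. Nkx6-2, a homeobox factor of oligodendrocytes, was 0.57, 0.67, 0.44 and 0.15 in wt mice and at most 0.12 in KQ mice. The wt male, 0.15, was the library that nearly overlapped. Nkx6-2 did not pass (-0.42 ± 0.11, limma adjusted p = 0.230), and the difference was -0.79 within litter 6 females and -0.058 within litter 5 males. Its unadjusted limma p for an interaction of genotype and sex was 0.00116, the lower of the 2 below 0.05 among the ranked genes (Tardbp was the other, 0.0432). Limma called no interaction in 18329 genes (411, or 2.24%, at an unadjusted p under 0.05). With wt male 2 as the only measured wt male and 3 residual degrees of freedom, that fit could miss differences between the sexes. Cdc42ep1, an effector of the GTPase CDC42 that shapes the cytoskeleton, was 0.49, 0.63, 0.36 and 0.32 against -0.13 to 0.14 (-0.43 ± 0.084, limma adjusted p = 0.166).

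Sox2, the transcription factor that keeps neural stem cells undifferentiated and stays on in astrocytes, was 0.45, 0.47, 0.35 and 0.39 in wt mice and -0.10 to 0.14 in KQ mice (-0.43 ± 0.060, limma adjusted p = 0.0716). It led a list of 21 genes of immature neurons and neurogenesis, of which 16 were lower (median -0.14). Of the 21, 5 lower and 1 higher did not overlap (4.29% and 4.22% of all genes). Sox9, which specifies astrocytes, was -0.46 ± 0.11 (limma adjusted p = 0.188). It led the 16 astrocyte genes, of which 15 were lower (median -0.14) and 5 were lower without overlap (4.29% of all genes tested). The astrocyte median was -0.067 without KQ female 1, and within litter 4 it was -0.014 with 10 of the 16 lower. Of the 22 oligodendrocyte and myelin genes 22 were lower (median -0.16, and -0.25 without wt male 2), but within litter 4 only 12 of the 22 were (median -0.030).

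Immune genes on the lower side beside Clec5a included those of myeloid receptors and the chemokine Ccl28. Ccl28, known for drawing lymphocytes to epithelia, was 0.44, 0.62, 0.50 and 0.63 in wt mice and -0.21, 0.0018 and 0.19 (lowest, median, highest) in KQ mice (-0.57 ± 0.10, limma adjusted p = 0.159). Of 27 myeloid receptor genes 23 were lower (median -0.10). Of the 27, 8 lower and 1 higher did not overlap (4.29% and 4.22% of all genes), and Clec5a was the only call. Tlr2, which senses bacterial lipoproteins, was -0.32 ± 0.068 and Csf3r, the receptor of a granulocyte growth factor, -0.26 ± 0.050 (limma adjusted p = 0.178 and 0.164). Of 18 complement genes 10 were lower and 8 higher (median -0.073, and 0.046 without KQ female 1). Of the 18, 3 were lower without overlap (4.29% of all genes), without a call. For microglia, of 16 homeostatic microglia genes 14 were lower (median -0.14), led by Cx3cr1 (-0.33 ± 0.076, adjusted p = 0.183), and of 19 disease-associated microglia genes 18 were lower (median -0.17). The latter median was -0.099 without KQ female 1, and -0.085 with 14 lower without wt female 2, KQ female 1 and KQ male 3. How far these markers take part in the fall of Clec5a was not tested.

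Other lower genes of the ranking were Trim59, Tmem267, Lrrc10b and Ddit4l. Trim59, a RING-type ubiquitin ligase, was 0.42, 0.82, 0.48 and 0.47 against -0.20 to 0.17 (-0.57 ± 0.11, limma adjusted p = 0.164), with wt female 2 far above the rest. Ddit4l, which restrains mTORC1, was 0.50, 0.74, 0.26 and 0.30 in wt mice and -0.27 to 0.18 in KQ mice (-0.37 ± 0.087, limma adjusted p = 0.191). Tmem267 (-0.47 ± 0.11) and Lrrc10b (-0.45 ± 0.085) did not pass either (limma adjusted p = 0.182 and 0.164).

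Among the ranked genes of the higher side, Col6a1 and Nav2 had the largest differences after Tardbp. Genes whose groups overlapped are not ranked, and their differences reached 1.07 in size. Col6a1, a chain of collagen VI, was -0.56, -1.15, -0.80 and -0.58 in wt mice and -0.36, -0.066 and 0.39 (lowest, median, highest) in KQ mice. The groups were 0.206 apart, but the spread within each was larger than that (SD 0.27, n = 4, and 0.30, n = 6), and it did not pass (0.76 ± 0.19, limma adjusted p = 0.215). Col4a1, of basement membranes, was 0.56 ± 0.14 (limma adjusted p = 0.219), and Pxdn, whose enzyme cross-links that collagen, 0.59 ± 0.17 (limma adjusted p = 0.248).

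Nav2, which guides growing neurites along microtubules, was -0.48, -1.125, -0.72 and -0.58 against -0.36 to 0.34 (0.72 ± 0.19, limma adjusted p = 0.219). The library of wt female 2 was the lowest. Of 24 neurofilament and cytoskeleton genes, by contrast, 17 were lower (median -0.0315), and 2 of the 24 were lower without overlap (4.29% of all genes tested). Of 23 collagen genes 19 were higher (median 0.21). Of the 23, 10 were higher with an unadjusted limma p under 0.05 (7.69% of all genes tested) and 3 were higher without overlap (4.22%). For markers of cells of the vessel wall and the meninges, of 13 pericyte and smooth muscle genes 9 were higher (median 0.024), of 13 meningeal fibroblast genes 6 (median -0.0046) and of 15 endothelial genes 5 (median -0.079). Without single libraries the pericyte median ran from -0.015 (KQ male 2) to 0.097 (KQ male 1, KQ female 3 or wt female 3) and the meningeal one from -0.11 (the same 3) to 0.16 (KQ female 1), and the endothelial median was -0.0052 without wt male 2.

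Genes that glucocorticoids induce formed another group on the higher side. Sgk1, a kinase that regulates ion transport, was -0.27, -0.75, -0.53 and -0.71 in wt mice and -0.11, -0.020 and 0.15 (lowest, median, highest) in KQ mice. Wt female 1 was the highest of its group and still 0.167 below the lowest KQ library (0.54 ± 0.11, limma adjusted p = 0.178). Klf15, a transcription factor that the glucocorticoid receptor activates directly, was the gene of the group with the lowest p.

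Klf15 was -0.31, -0.57, -0.44 and -0.41 in wt mice and -0.052 to 0.10 in KQ mice (0.43 ± 0.070, limma adjusted p = 0.135). It was called with both regions in 1 model without a term for mouse (limma adjusted p = 0.0117). That model takes all libraries as independent, although the labels do not say whether the regions share mice. Its count of calls moved widely when single libraries were left out. Of the 23 genes of the list, chosen with earlier results of these data known, 18 were higher (median 0.32), and none was called. Of the 23, 12 were higher without overlap (4.22% of all genes tested) and 14 were higher with an unadjusted limma p under 0.05 (7.69%). Among them were the alpha-arrestin Arrdc2 (0.64 ± 0.14), the repressor Zbtb16 (0.58 ± 0.14), the hypoxia-inducible factor Hif3a (0.57 ± 0.16) and the EGF receptor inhibitor Errfi1 (0.32 ± 0.062), with limma adjusted p from 0.166 to 0.244. The list means were -0.42 to -0.085 in wt mice and -0.077 to 0.14 in KQ mice; the highest wt library, female 1, thus lay just under the lowest KQ library. The median stayed between 0.27 and 0.37 without single libraries. In the hippocampus it was 0.38. Per1, also in the list, belongs as well to the 19 circadian clock genes, of which 15 were higher (median 0.13; 0.057 without KQ female 1 and 0.25 without wt male 2).

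Genes that p53 induces or that act in apoptosis were on this side for 21 of 27 members, with a small median of 0.050 (0.096 without KQ female 1). Of the 27, 7 higher and 1 lower did not overlap (4.22% and 4.29% of all genes tested). Trp53inp1, which p53 switches on under stress, was -0.55, -0.66, -0.40 and -0.45 in wt mice and -0.20 to 0.21 in KQ mice (0.50 ± 0.11, limma adjusted p = 0.178). Pmaip1, whose product Noxa promotes cell death, was -0.28, -0.36, -0.33 and -0.29 against -0.097 to 0.16 (0.33 ± 0.066, limma adjusted p = 0.167). Plekhf1, a lysosomal and endosomal protein, was 0.35 ± 0.080 (limma adjusted p = 0.182).

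Islr2 had tighter groups (SD 0.12, n = 4, and 0.13, n = 6) than the median of the higher ranked genes (0.22 and 0.19). Its product is a membrane protein of axons with leucine-rich repeats, and it was -0.54, -0.75, -0.47 and -0.56 in wt mice and -0.15, -0.0062 and 0.22 (lowest, median, highest) in KQ mice. The groups were 0.314 apart, and it was 0.60 ± 0.091 (limma adjusted p = 0.117, and 0.0176 with both regions in 1 model without a term for mouse). That model takes all libraries as independent, although the labels do not say whether the regions share mice. Aff1, a scaffold of the super elongation complex, was 0.50 ± 0.12 and the zinc finger gene Zfp189 0.55 ± 0.10 (limma adjusted p = 0.191 and 0.164).

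The ranked genes kept their sign inside litters, which complete separation entails here. Within litter 6 (1 KQ and 2 wt females) and among the males of litter 5 (2 KQ and 1 wt, without KQ female 3 of that litter) the libraries compared share sex and litter, so that the removal of these effects leaves the differences as they were. In litter 4, 1 KQ male was set against 1 wt female, so that its differences rest on the removal of sex. Over all genes 7912 (43.2%) had the same sign in these 2 and in litter 4, 3947 higher (21.5%) and 3965 lower (21.6%). The differences of Zfp180 were -0.48, -0.52 and -0.45 in litters 6, 5 and 4, and those of Meis2 -0.46, -0.50 and -0.43. Spsb1 was as even, at 0.61, 0.59 and 0.49. By contrast Col6a1 was 1.25, 0.65 and 0.58, and Nav2 1.14, 0.82 and 0.36, so that both were largest in litter 6, which holds KQ female 1 and wt female 2.

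**Figure D3:**
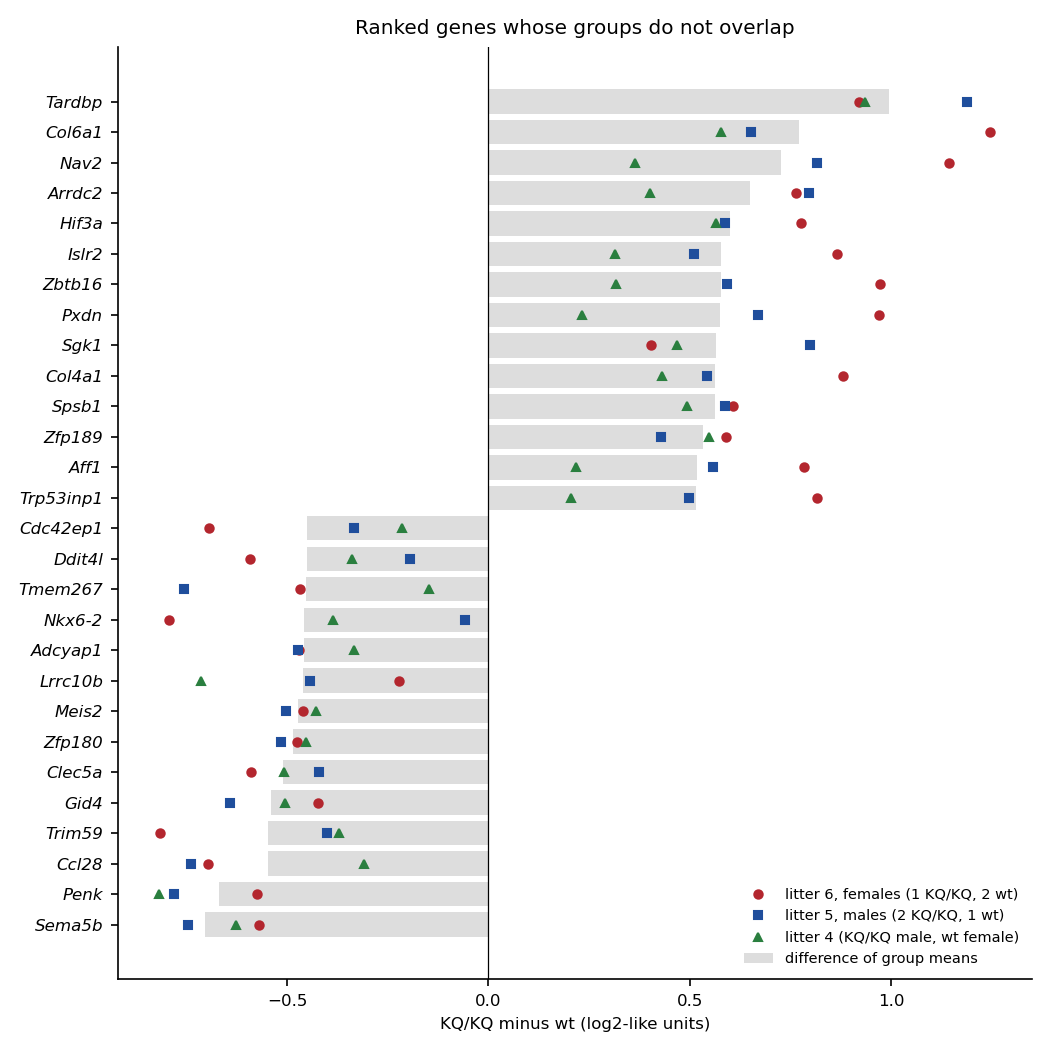
Difference between KQ and wt (log2-like units, x axis) for the reported genes among the 15 higher and 15 lower with the largest differences and no overlap; bars are differences of group means and points are differences among the females of litter 6, among the males of litter 5 and between the KQ male and wt female of litter 4. Points of Zfp180, Meis2 and Spsb1 lie close together, while those of Col6a1 run from 0.58 to 1.25.

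The libraries at the ends of the first component also stood at the ends of lists of ribosomal protein genes and nuclear noncoding RNAs. All 39 ribosomal protein genes and all 34 respiratory chain genes were on the lower side (medians -0.17 and -0.11), without a call. Of them, 1 and 0 were lower without overlap, against 4.29% of all genes tested. Of 10 nuclear long noncoding RNAs, a list chosen after their values were seen, 8 were higher (median 0.42) and none was free of overlap. The ribosomal list mean was 0.39 in wt female 2 and -0.12 and -0.13 in KQ female 1 and male 3, and the noncoding list mean was -0.77 in the first and 0.43 and 0.37 in the others. The library of wt male 2 (-0.00047) lay inside the KQ range of the ribosomal list.

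Without these 3 libraries the medians were -0.050 for the ribosomal, -0.0054 for the respiratory and 0.051 for the noncoding list. The striatal median was then -0.44 (-0.34 with all libraries), the glucocorticoid median 0.26 (0.32), the myeloid receptor median -0.082 (-0.10), the GABAergic median -0.085 (-0.12) and the collagen median 0.14 (0.21). None of these medians changed sign. With single libraries left out, the ribosomal median ran from -0.28 (wt male 2) to -0.066 (KQ female 1), the respiratory one from -0.23 to -0.026 in the same libraries, and the noncoding one from 0.14 (KQ female 1) to 0.68 (KQ male 1, KQ female 3 or wt female 3). The collagen list mean was highest in KQ female 1 and male 3 (both 0.12) and lowest in wt female 2 (-0.44), as for the noncoding list, and the part of what these libraries share in the collagen values was not tested. In this set of 8 libraries limma called 0 genes (1135 at an unadjusted p under 0.05) and 2654 did not overlap.

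**Figure D4:**
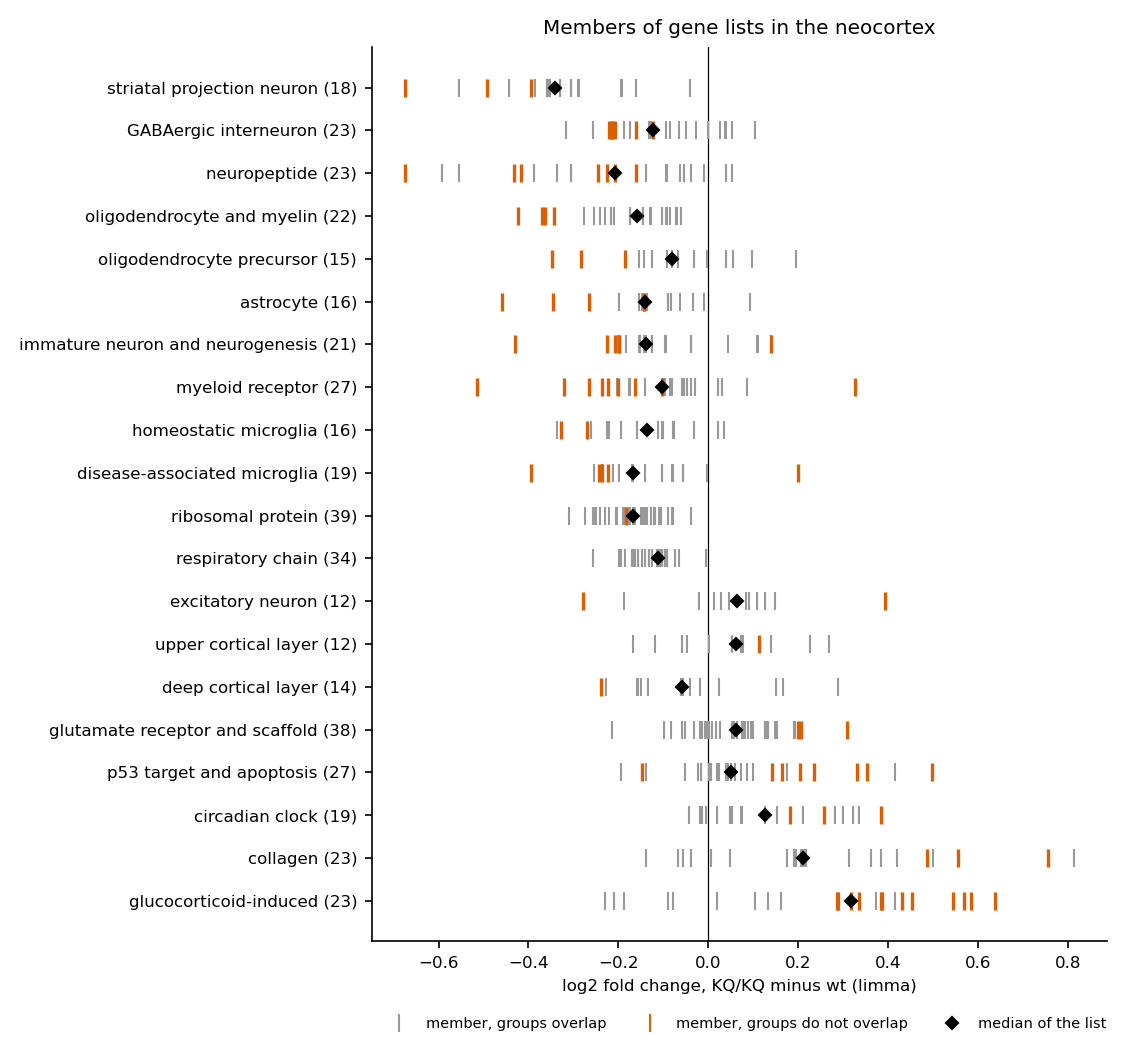
Limma log2 fold changes (KQ minus wt, x axis) of the tested members of 20 gene lists in the neocortex, number of members in parentheses; each tick is a gene, orange where the groups do not overlap, and diamonds are list medians. Medians run from -0.34 for striatal projection neuron genes to 0.32 for glucocorticoid-induced genes.

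**Figure D5:**
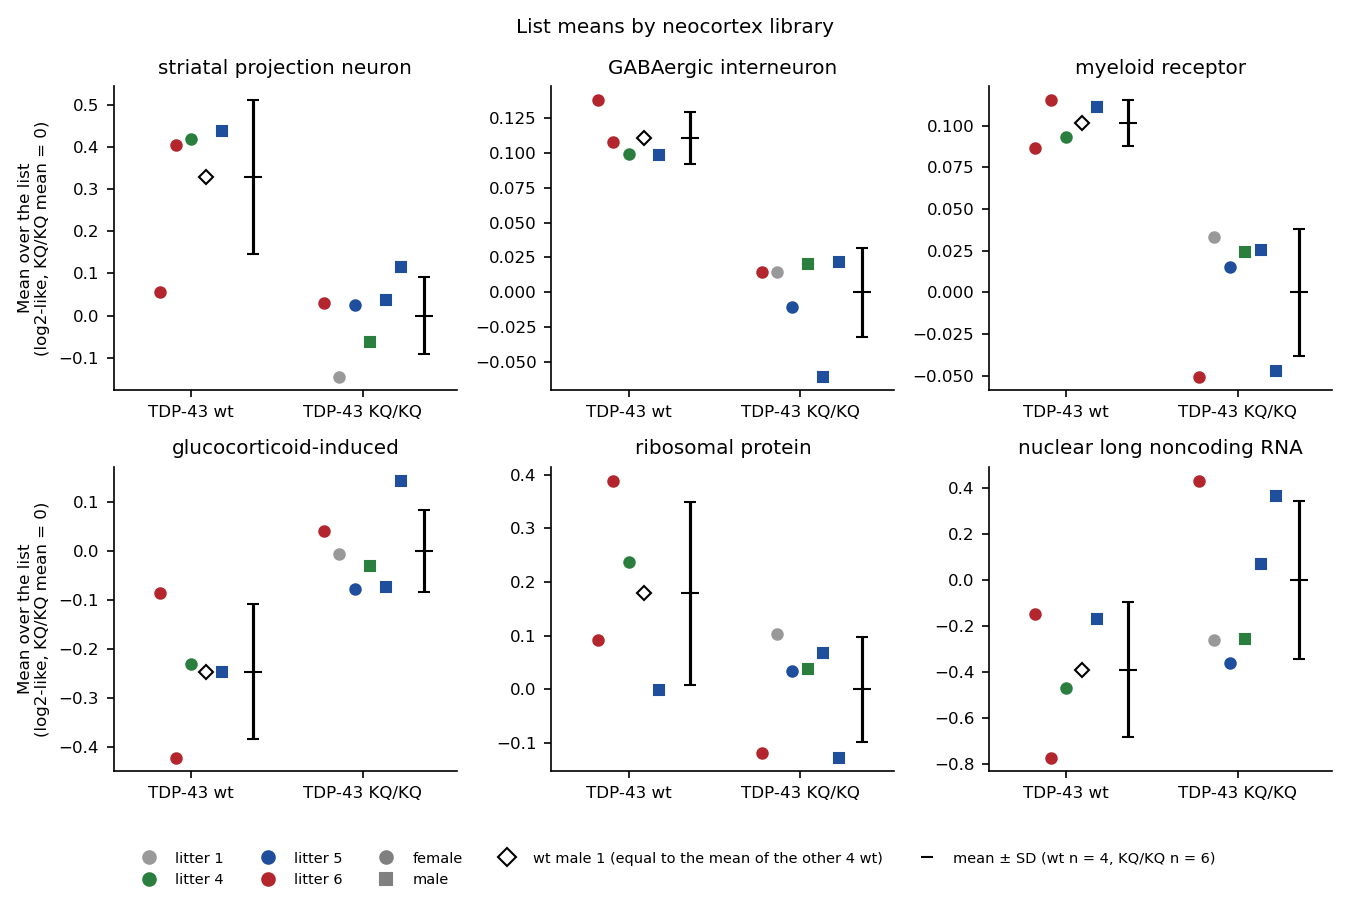
Mean deposited value over the tested members of 6 lists in each neocortex library (log2-like, mean of KQ = 0), with litters, sexes, open diamonds and bars as in the plot of single genes. The GABAergic, myeloid receptor and glucocorticoid-induced means do not overlap between groups, whereas wt female 1 (0.055) lies among the KQ libraries for the striatal list.

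Lists tied to TDP-43 itself had medians near 0, which stayed between -0.066 (genes of inherited disease, without wt male 2) and 0.037 (splicing regulators, without KQ male 1, KQ female 3 or wt female 3) when single libraries were left out. Of 19 transcripts known to be regulated by TDP-43, 9 were higher and 10 lower (median -0.0058), with 3 without overlap (8.51% of all genes) and no call. Sort1, whose splicing TDP-43 controls, was -0.11, -0.15, -0.14 and -0.082 in wt mice and -0.040 to 0.036 in KQ mice (0.12 ± 0.049, limma adjusted p = 0.348). Of 39 hnRNP and splicing regulators 20 were higher (median 0.016), and of 27 genes of inherited amyotrophic lateral sclerosis or frontotemporal dementia 11 (median -0.032), without a call in either list. These values are totals per gene and do not show splicing. Other lists with medians near 0 over all libraries were interferon response (19 of 23 higher, median 0.034), MHC presentation (7 of 16 higher, median -0.011) and endoplasmic reticulum stress (13 of 26 higher, median -0.0042). Each had 0 calls by limma. In these lists 2, 0 and 4 members had an unadjusted limma p under 0.05, against 13.7% of all genes. These medians hung on single libraries. Without KQ female 1 the interferon median was 0.13 and the MHC median 0.11, and without wt male 2 they were -0.034 and -0.11, and the endoplasmic reticulum median was -0.081 without wt male 2.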

How the data were processed

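Total RNA from neocortex and hippocampus was sequenced by the authors. Per the processing notes of the labels and the methods, trimming used cutadapt, alignment STAR 2.5.2b on mm10 and quantification Salmon. The authors deposited values on a log2-like scale: variance-stabilized in DESeq2 1.34.0 (R 4.1.0), with sex and litter removed by limma over both regions. No count is given, so depth is unknown. Here limma 3.58.1 in R 4.3.3 was run on the 11 neocortex libraries with genotype, sex and litter (4 residual degrees of freedom), with Benjamini-Hochberg adjustment over 18329 genes. Of 24528 genes, 4383 at 0 in every library and 1816 tied in all 3 libraries of one sex and litter were left out. Genotype by sex, both regions in 1 model (17863 genes) and hippocampus alone were also fitted. Medians of lists are of limma log2 fold changes. Figures used Python 3.11.15 and matplotlib 3.10.9, and coordinates are those of GRCm38 (RefSeq for genes, GENCODE for the edited codon). Named genes are those called, the 15 largest and 15 smallest differences without overlap (109 such genes of unnamed, predicted, pseudogene or small RNA classes were only counted), up to 3 members with the lowest p in each of 46 lists, and Tardbp, Sort1 and called neighbours of Tardbp; 2 of the ranked genes are not reported here, and others were chosen after their values were seen. Members and lists were chosen with earlier results of these data known. Alternatives changed the model terms, filter, scaling, variance estimate and libraries. Each library is labelled as a separate sample of its group, and p-values measure the spread between these libraries.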

Additional observations from a re-analysis of the deposited data

Results flagged for a closer look

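Of 150 sets of values of reported genes and list means tested in the neocortex with Dixon's criterion, 12 had 1 library far from the others of its group. For independent normal values chance gives about 1 in 20. Sex and litter had been removed from these values and lists share members, so that rate need not hold here. Wt female 1 was low for Penk (0.301, others 0.766 to 0.815) and the mean of the striatal projection neuron list (0.0551, others 0.404 to 0.436), and high for the hippocampal subfield list (0.0848, others -0.0398 to -0.0225). Wt female 2 was high for Trim59 (0.816, others 0.419 to 0.483) and for the oligodendrocyte and myelin list (0.335, others 0.106 to 0.139), and low for Aff1 (-0.745, others -0.455 to -0.427). Wt female 3 was low for Sema5b (0.604, others 0.731 to 0.750).

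Among KQ mice, female 2 was low for Meis2 (-0.140, others -0.00807 to 0.0645) and high for the immature neuron and neurogenesis list (0.0753, others -0.0296 to 0.00689). The neocortex values of KQ female 2 depend on the hippocampus library of its litter as well. Male 3 was low for Adcyap1 (-0.178, others -0.0181 to 0.0593) and Zfp189 (-0.382, others 0.0486 to 0.132), and male 2 was high for the pericyte and smooth muscle list (0.251, others -0.0694 to -0.0154). Limma called no difference between females and males in the effect of genotype (0 genes, 411 at an unadjusted p under 0.05). Wt male 2 is the only measured wt male and that fit has 3 residual degrees of freedom. The lack of calls therefore does not show that the sexes respond alike.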

How the results depend on the processing

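The count of 7 called neocortex genes was 2745 with genotype alone, 1939 with sex but no litter, 2423 with litter as a random effect and 1856 with a replicate block in place of sex and litter; these fits count degrees of freedom that the authors' removal of sex and litter had already used. It was 40 with both regions in 1 fit, 36 with mouse as a random effect as well (same-numbered females of both regions taken as 1 mouse, which the labels do not state), 12 with robust variance estimates, 0 without the filter on genes at the floor (2573 at an unadjusted limma p under 0.05), and 0 without wt female 2, KQ female 1 and KQ male 3 (1135 unadjusted), a set chosen after seeing the data. Leaving out 1 library gave 0 (without wt male 2, 2098 unadjusted) to 9. A stricter filter and centring gave 7 each. Deviations of same-numbered mice correlated from -0.107 to 0.116, with 1 of 5 pairs over 0.1. The value of the pair with wt male 1 (-0.000621) carries no content, since that library equals the mean of the others. Litter effects had also been removed, so these values cannot settle whether the replicate numbers pair the samples. By their labels, same-numbered females 2, females 3 and males 1 came from different litters.

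Genes without overlap numbered 1560, 2654 without the 3 libraries, and 1560 to 2988 without single ones (2518 without wt female 1, 2988 without wt male 2). Genes of 1 sign within litters rose in number from 7912 to 11971 with litters 6 and 5 alone, where fewer litters must agree. The hippocampus had 0 calls alone (2224 unadjusted, limma) and 69 with both regions in 1 fit. The median of the choroid plexus list reversed, from -0.118 to 0.2417 without the 3 libraries, 0.08543, 0.1608 and 0.04607 without wt female 1, KQ female 1 and wt male 2, and 0.08646 as a difference of means; over single libraries left out it ran from -0.5261 to 0.1608 (added after seeing the data). Apart from the steps whose construction shows it, the cause was not tested. With 4 measured wt libraries and no depth, the spread between mice limits precision.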
